A study of Mus musculus with 6 samples.

Results

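Aminoacyl tRNA synthetases are the enzymes that join each amino acid to its transfer RNA (tRNA), the step that supplies charged tRNA to the ribosome. Transcripts of 36 genes of this family were followed in P14 CD8+ T cells, 20 for cytosolic and 16 for mitochondrial enzymes, out of 55335 gene identifiers counted. The members were taken from a list of gene symbols, matched to Ensembl identifiers in the count table, and all 36 were found and passed the filter on low counts. The table's annotation writes Mars1 as Mars, and the enzymes whose symbol ends in 2 are those of mitochondria.

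Mammalian cells make protein in the cytosol and, for a few subunits of the respiratory chain, inside mitochondria, and each compartment has its own set of synthetases. Most mitochondrial enzymes come from separate nuclear genes, whereas Gars and Kars each encode a cytosolic and a mitochondrial form. Several cytosolic enzymes assemble with 3 scaffold proteins into the multisynthetase complex. Many cytosolic synthetase genes are known targets of ATF4, a transcription factor made when amino acids run short or the endoplasmic reticulum is stressed, and activated T cells are known to raise protein synthesis as they grow.

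The T cell receptor of P14 cells is a transgene that recognises GP33-41, a peptide of lymphocytic choriomeningitis virus, so that donor cells share a single antigen specificity. The tumor group (TIL, 3 libraries) held donor P14 cells sorted from B16 melanomas that express this peptide, and the spleen group (Sp, 3 libraries) held donor P14 cells sorted from the spleens of the same tumor-bearing mice. Both groups were labelled C57BL/6, 10-week-old and P14 TCR transgenic, the cells were transferred on day 11 after tumor implantation, and the tumor cells alone were passed over Percoll before sorting. The labels do not say how long after transfer the cells were sorted, whether cells of several mice were pooled, or whether each library is from its own mice. The p-values therefore measure the spread between these samples alone, and that spread may be technical.

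Library totals ranged from 35095261 to 38263483 counts. The biological coefficient of variation was 10.4% among TIL libraries and 3.20% among Sp libraries. T cell genes were abundant in all libraries, with 8 markers summing to 4167 to 4325 CPM (counts scaled to the library total) in TIL and 4633 to 4683 CPM in Sp. Markers of B cells and myeloid cells were lower in TIL, in 8 of 8 B cell genes (sum 7.82 to 9.57 CPM in TIL, 455 to 468 CPM in Sp, with Cr2 at 0 counts in TIL), 8 of 8 macrophage genes (29.2 to 29.8 CPM in TIL, 170 to 182 CPM in Sp) and 8 of 8 dendritic cell and MHC class II genes (79.7 to 85.7 CPM in TIL, 1781 to 1821 CPM in Sp, with Siglech at 0 counts in TIL). The 8 melanoma genes summed to 21.6 to 23.1 CPM in TIL and 32.9 to 33.6 CPM in Sp, and most of both sums was Pmel (mean 8.54 CPM in TIL, 19.8 CPM in Sp) and Gpnmb (12.2 CPM in TIL, 12.8 CPM in Sp). Melanocyte genes at low counts went the other way. Tyrp1 had 31, 24 and 9 counts in TIL libraries and 0 counts in all Sp libraries, Mlana had 8, 6 and 5 counts in TIL libraries, against 0, 0 and 2 counts in Sp libraries, and Dct, the one called higher, had 16, 18 and 17 counts in TIL libraries, against 0, 1 and 0 counts in Sp libraries. The 6 erythroid genes summed to 132 to 145 CPM in TIL and 112 to 115 CPM in Sp, and the 6 fibroblast and endothelial genes to 52.3 to 56.8 CPM in TIL and 85.7 to 88.3 CPM in Sp, with Col3a1 at 0 counts in TIL. The part of these other cells in the synthetase values was not tested. In such bulk samples, fewer cells of a type and less RNA per cell cannot be told apart. The codes in the sample descriptions end alike within each tissue and differ between tissues. Were that ending a batch, its effect and that of tissue cannot be told apart.

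Promoter sequences of the members were read to show which of the motifs named below lie near their starts. The windows run from 250 bases before to 50 bases after the start of transcription in RefSeq (build GRCm38.p6, the assembly of mm10), 5′ to 3′ on the gene's own strand, and 27 of the 36 genes had one. They were searched on both strands for TGATGNAA (TTNCATCA on the other strand), the core bound by ATF4 with C/EBP proteins, and for CACGTG, the E-box bound by MYC with MAX. The first core was in the windows of 5 of 13 cytosolic genes (38.5%) and 0 of 14 mitochondrial genes, against 3.97% of 32851 promoter windows of that length. CACGTG was in 4 of 13 cytosolic windows and 1 of 14 mitochondrial windows, against 7.15% of all windows, and no match overlapped another in the members' windows. The 5 windows with an ATF4 core are shown, with that of Tars2, the mitochondrial enzyme with the largest rise, for contrast. Capitals mark both motifs.
Aars (chr8:111033592-111033891, plus strand): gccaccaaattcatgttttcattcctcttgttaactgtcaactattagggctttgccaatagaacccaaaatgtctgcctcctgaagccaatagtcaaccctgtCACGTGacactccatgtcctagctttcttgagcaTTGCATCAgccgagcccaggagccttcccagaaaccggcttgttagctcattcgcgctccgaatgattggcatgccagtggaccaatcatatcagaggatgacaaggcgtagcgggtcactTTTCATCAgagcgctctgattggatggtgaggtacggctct
Gars (chr6:55037751-55038050, plus strand): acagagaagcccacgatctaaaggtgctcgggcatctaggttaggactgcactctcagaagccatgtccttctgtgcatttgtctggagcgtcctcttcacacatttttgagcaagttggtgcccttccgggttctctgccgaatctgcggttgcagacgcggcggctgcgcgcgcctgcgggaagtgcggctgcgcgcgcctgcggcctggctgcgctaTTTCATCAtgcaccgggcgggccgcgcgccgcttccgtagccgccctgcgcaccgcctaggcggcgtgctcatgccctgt
Iars (chr13:49681880-49682179, plus strand): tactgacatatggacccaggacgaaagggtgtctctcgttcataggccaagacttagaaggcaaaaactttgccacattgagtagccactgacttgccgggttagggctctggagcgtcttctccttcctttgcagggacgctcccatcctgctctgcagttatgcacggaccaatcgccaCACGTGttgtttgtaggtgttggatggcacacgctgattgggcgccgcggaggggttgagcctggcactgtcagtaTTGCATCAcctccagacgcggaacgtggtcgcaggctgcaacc
Tars (chr15:11399609-11399908, minus strand): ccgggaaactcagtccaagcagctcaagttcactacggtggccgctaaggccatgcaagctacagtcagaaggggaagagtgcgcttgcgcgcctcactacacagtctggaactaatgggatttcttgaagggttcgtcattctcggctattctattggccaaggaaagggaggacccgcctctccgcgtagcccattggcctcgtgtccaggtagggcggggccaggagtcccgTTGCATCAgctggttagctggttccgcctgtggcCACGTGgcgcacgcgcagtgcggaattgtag
Yars (chr4:129189653-129189952, plus strand): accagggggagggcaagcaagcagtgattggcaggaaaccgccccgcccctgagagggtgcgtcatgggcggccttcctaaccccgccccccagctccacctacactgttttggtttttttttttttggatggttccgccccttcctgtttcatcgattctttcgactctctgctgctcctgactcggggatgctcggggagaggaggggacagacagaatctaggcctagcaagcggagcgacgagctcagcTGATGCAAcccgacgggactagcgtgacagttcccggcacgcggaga
Tars2 (chr3:95754928-95755227, minus strand): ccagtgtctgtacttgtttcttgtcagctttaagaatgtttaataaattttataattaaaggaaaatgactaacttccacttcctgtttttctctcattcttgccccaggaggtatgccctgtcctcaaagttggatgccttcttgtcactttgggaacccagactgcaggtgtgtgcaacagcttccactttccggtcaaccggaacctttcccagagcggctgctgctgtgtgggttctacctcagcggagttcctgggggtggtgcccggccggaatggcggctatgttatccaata
Aars, which charges alanine, held TTGCATCA from 112 bases before the start, TTTCATCA from 9 bases after it and CACGTG from 146 bases before it. Iars and Tars, for isoleucine and threonine, each held TTGCATCA and CACGTG, and Gars, for glycine, held TTTCATCA from 30 bases before its start. Yars, for tyrosine, held TGATGCAA from 3 bases after its start, and the Tars2 window held neither motif. In the annotation used for exon lengths, Tars2 runs from 95739976 to 95760206 and Aars from 111033144 to 111057664. The windows of Tars2 and Aars therefore lie inside these genes, and starts further upstream were not searched. Among other cytosolic genes with large rises, Mars1, Eprs and Kars held neither motif, Farsb held CACGTG alone, and Cars had no window. Whether the motifs go with the size of the rise was not tested. A match is a run of letters, not a measured binding site.

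All 20 cytosolic synthetase genes were higher in TIL than in Sp, while the mitochondrial genes were split. The count was 20 of 20 higher for cytosolic enzymes and 9 of 16 for mitochondrial enzymes, against 34.8% of the 19783 genes tested (quasi-likelihood test of edgeR, with p-values adjusted by Benjamini-Hochberg over all genes and a threshold of 0.05). Lower calls were made for 0 of 20 cytosolic genes, also at an unadjusted p below 0.05 and with DESeq2 or limma-voom, and for 2 of 16 mitochondrial genes, against 35.9% of all genes. Over both directions 31 of 36 members passed, against 70.7% of all genes. With a fold of at least 1.5 added to the rule, 16 cytosolic and 2 mitochondrial genes were higher, against 21.2% of all genes, and no member was lower, against 23.8%. The median log2 fold change, TIL over Sp, was 0.77 for the cytosolic genes, 0.21 for the mitochondrial genes and -0.02 for all genes tested. Libraries did not overlap for 20 of 20 cytosolic and 9 of 16 mitochondrial genes that were higher, against 35.1% of all genes, and for 3 mitochondrial genes that were lower, against 39.4% of all genes.

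**Figure D1:**
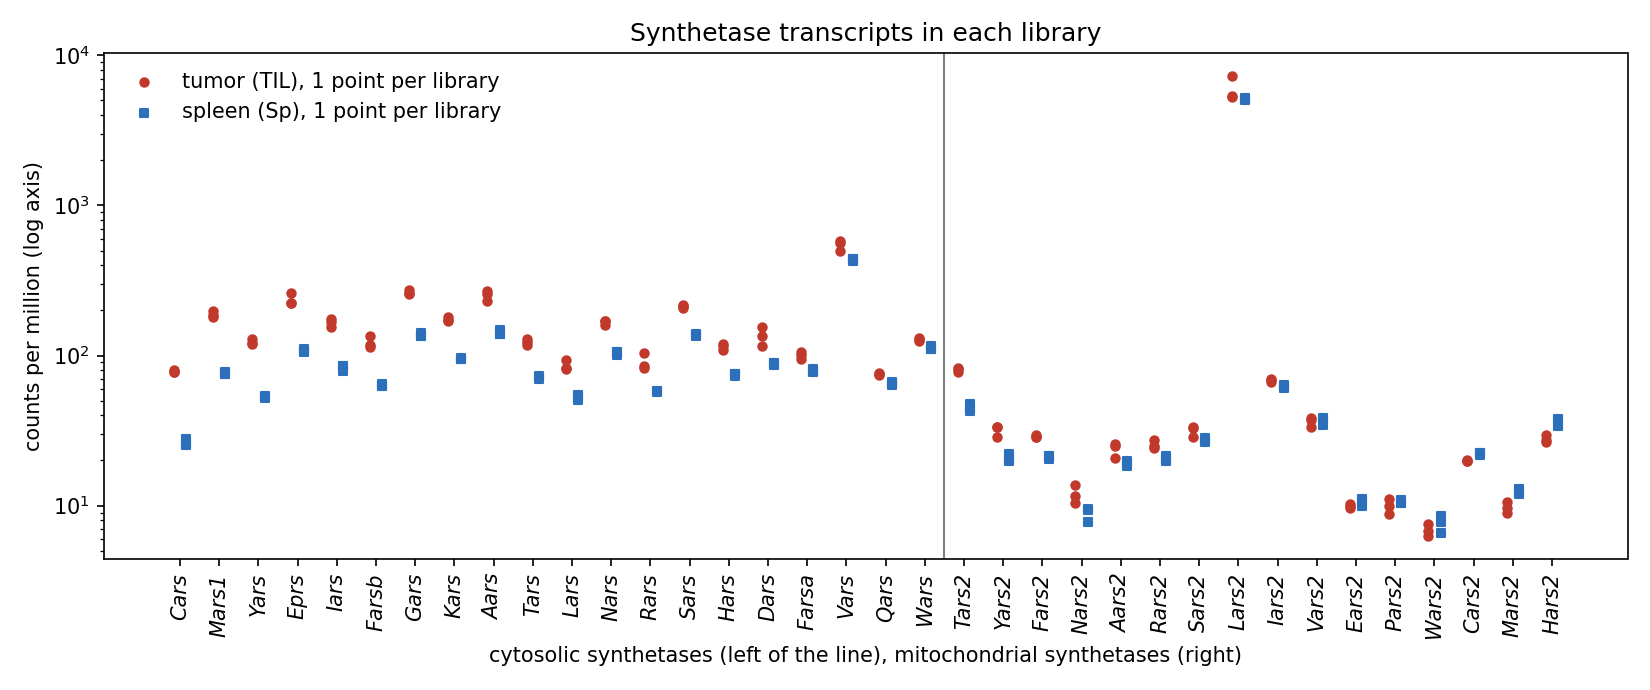
Level of each synthetase transcript in CPM (log axis) in 3 TIL and 3 Sp libraries, 1 point per library, with genes ordered by fold change within each class. TIL points lie above all Sp points for each of the 20 cytosolic genes, and Lars2 stands far above the other mitochondrial genes.

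Summed over the 20 genes, cytosolic synthetase transcripts made up 3365 to 3394 CPM in TIL and 2045 to 2086 CPM in Sp, a ratio of means of 1.64. The 15 mitochondrial genes other than Lars2 summed to 412 to 431 CPM in TIL and 358 to 366 CPM in Sp, a ratio of 1.17. In TPM, counts per annotated exon length are rescaled to the same total in each library. The ratios were smaller there, at 1.47 for the cytosolic sum and 1.06 for the mitochondrial sum without Lars2. Exon length is the same in both tissues, so a single gene's ratio differs between the scales only through the library-wide total. Small rises shrank on this scale. Wars averaged 52.6 ± 1.86 TPM in TIL and 51.2 ± 2.18 TPM in Sp (SD, n = 3 each). Sars2 averaged 13.6 ± 1.29 TPM in TIL and 12.9 ± 0.315 TPM in Sp. Both gaps were within the TIL SD.

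The largest rises were in Cars, Mars1, Yars and Eprs. Cars charges cysteine, and its transcript had 80.3, 77.1 and 78.2 CPM in TIL libraries, against 26.0, 28.0 and 25.3 CPM in Sp libraries. The TIL libraries lay close together and far above all Sp libraries, and the fitted change was 3.03-fold (log2 fold change 1.60, SE 0.07, adjusted p = 2.5e-09). Mars1 charges methionine, including the initiator tRNA, and had 197, 185 and 181 CPM in TIL libraries, against 77.7, 74.9 and 75.1 CPM in Sp libraries (2.53-fold). Yars, for tyrosine, had 122, 129 and 119 CPM in TIL libraries, against 52.8, 53.9 and 52.3 CPM in Sp libraries (2.37-fold). Eprs, a single protein that charges both glutamate and proline, had 223, 222 and 263 CPM in TIL libraries, against 105, 107 and 111 CPM in Sp libraries (2.24-fold). In each of these genes the groups were well apart. Tumor replicate 3 was the highest library for Eprs and the lowest TIL library for Mars1 and Yars.

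In mm10, Cars (ENSMUSG00000010755.17) lies on chromosome 7 at 143557230 to 143600090 and Mars1 (ENSMUSG00000040354.14) on chromosome 10 at 127296221 to 127311786. Counts are over the annotated exons of each gene as deposited. Mars1 shares 68 of its 3423 exonic bases with Ddit3 on the opposite strand. Cars shares 211 exonic bases with Gm15580, which runs the other way. The sources used here do not give the strand setting used in counting. Aars shares 14.3% of its exonic bases with Exosc6 on the same strand, and Iars shares 7.15% of its sequence words of read length (50 bases) with the gene model Gm4849, so that the split of reads between these genes is uncertain.

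A middle group rose by 1.56-fold (Dars) to 2.03-fold (Iars). Iars, for isoleucine (log2 fold change 1.02), Farsb (0.98), Gars (0.97), Kars, for lysine (0.91), Aars (0.86), Tars (0.82), Lars, for leucine (0.72), Nars, for asparagine (0.70), Rars, for arginine (0.68), Sars, for serine (0.66), Hars, for histidine (0.65), and Dars, for aspartate (0.64), were all called. Gars and Kars, the genes that serve both compartments, had larger fold changes than any of the 16 mitochondrial genes. So did Cars, Mars1, Yars, Eprs, Iars and Farsb. Counts per gene do not separate the cytosolic from the mitochondrial form of Gars or Kars. Kars (0.91, SE 0.05) and Tars2 (0.88, SE 0.06) were not apart by more than their SEs. Gars had 259, 257 and 272 CPM in TIL libraries, against 135, 141 and 135 CPM in Sp libraries (1.96-fold, adjusted p = 2.3e-08).

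The smallest rises were in Wars, Qars, Vars and Farsa, each at most 1.29-fold. Wars, which charges tryptophan and is known to be induced by interferon gamma, had 129, 131 and 125 CPM in TIL libraries, against 111, 115 and 110 CPM in Sp libraries (log2 fold change 0.22, SE 0.05, adjusted p = 0.0040). Qars, for glutamine, had 74.5, 75.4 and 76.9 CPM in TIL libraries, against 64.3, 64.0 and 66.9 CPM in Sp libraries (0.25, adjusted p = 0.0019). Both genes had TIL libraries above all Sp libraries by a narrow margin. Their calls were lost with the Sp libraries summed into 1 sample (adjusted p = 0.12 for Wars and 0.091 for Qars). Vars, for valine, was the most abundant cytosolic synthetase in CPM, with 579, 562 and 497 CPM in TIL libraries, against 437, 439 and 423 CPM in Sp libraries (0.36, adjusted p = 0.00053).

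Phenylalanine is charged in the cytosol by an enzyme of paired alpha and beta chains, encoded by Farsa and Farsb. Farsb had 114, 118 and 135 CPM in TIL libraries, against 63.0, 62.4 and 64.7 CPM in Sp libraries (1.97-fold). Farsa had 106, 101 and 94.2 CPM in TIL libraries, against 77.5, 81.5 and 78.8 CPM in Sp libraries (1.29-fold). Per exon length, the Farsb over Farsa ratio was 2.11 in TIL and 1.38 in Sp, with no overlap between the groups (two-sided exact permutation p = 0.1, n = 3 each, the smallest that 3 against 3 allows). Tumor replicate 3 was the highest TIL library for Farsb and the lowest for Farsa. Farsb shares 9.47% of its exonic bases with Sgpp2 on the opposite strand.

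**Figure D2:**
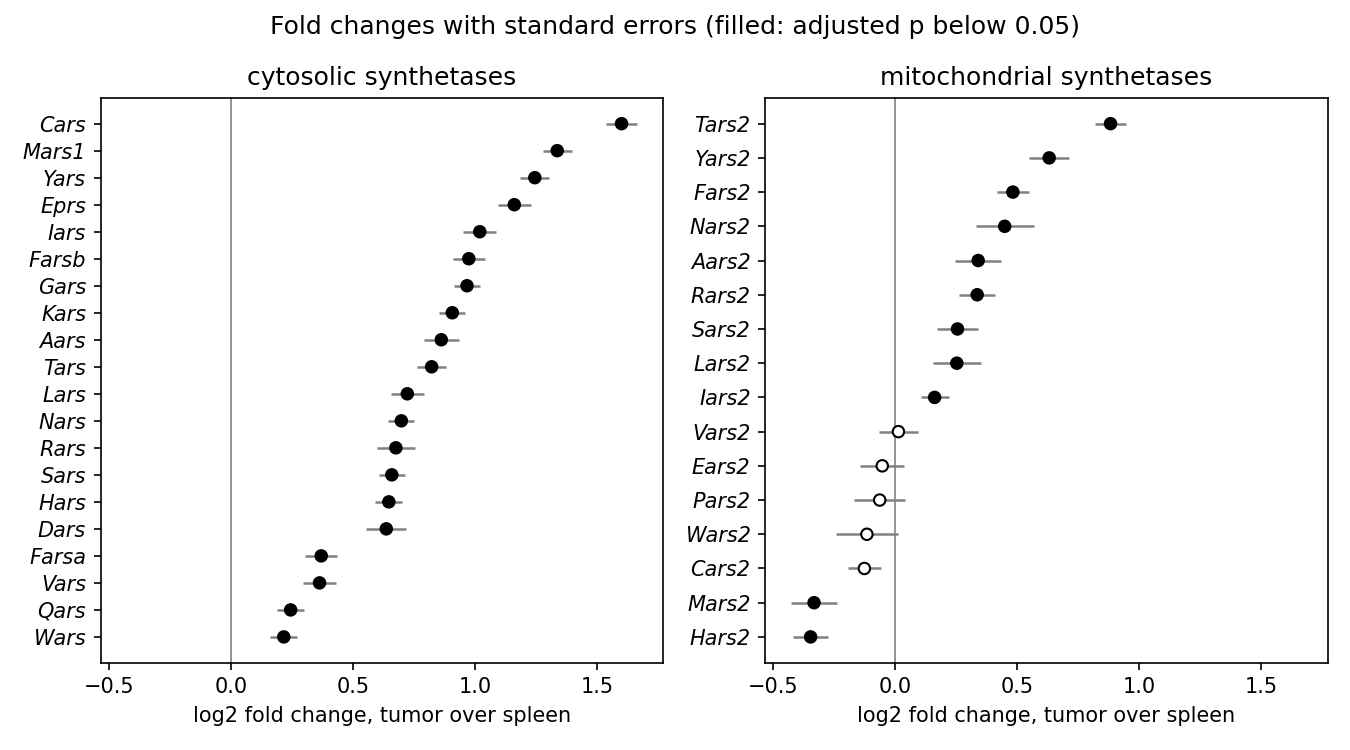
Log2 fold change, TIL over Sp, of each synthetase with its standard error, cytosolic genes on the left and mitochondrial genes on the right, filled where the adjusted p was below 0.05. Cytosolic values run from 0.22 (Wars) to 1.60 (Cars), and mitochondrial values from -0.35 (Hars2) to 0.88 (Tars2).

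Compared per length, Vars and Gars led the cytosolic set in both tissues. Vars averaged 138 TPM in TIL and 121 TPM in Sp, and Gars averaged 119 TPM in TIL and 69.1 TPM in Sp. Mars1 came next in TIL (77.7 TPM, against 34.9 TPM in Sp), whereas Wars followed Gars in Sp (52.6 TPM in TIL, 51.2 TPM in Sp). Cars was the lowest cytosolic member in Sp, with 16.9 TPM in TIL and 6.31 TPM in Sp. Annotated exons of Eprs (18102 bases) and Aars (9282 bases) run far longer than those of most members, which lowers their values on this scale.

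Among the mitochondrial enzymes, 9 rose, 2 fell and 5 did not pass. Tars2, which charges threonine, had the largest rise, with 82.5, 81.6 and 78.0 CPM in TIL libraries, against 42.6, 47.2 and 44.3 CPM in Sp libraries (1.84-fold, adjusted p = 2.9e-07). Yars2, for tyrosine, had 33.2, 28.6 and 33.2 CPM in TIL libraries, against 19.9, 22.0 and 20.7 CPM in Sp libraries (1.55-fold, adjusted p = 3.2e-05). Fars2, a single-chain enzyme for phenylalanine, rose 1.40-fold (adjusted p = 5.0e-05). The groups did not overlap in any of these 3 genes, and their calls held with the Sp libraries summed into 1 sample. The calls of the other 6 higher genes were lost there: Nars2 (log2 fold change 0.45), Aars2 (0.34), Rars2 (0.34), Sars2 (0.26), Lars2 (0.25) and Iars2 (0.16), with adjusted p from 0.067 to 0.27. The Lars2 call was also lost with upper-quartile scaling (adjusted p = 0.086), library totals as scaling (0.072) and a minimum count of 50 (0.065), and the Iars2 call with upper-quartile scaling (0.11). Leaving out 1 library at a time lost the calls of Iars2 (without tumor replicate 2 or any spleen replicate), Lars2 (without any spleen replicate) and Sars2 (without tumor replicate 2, spleen replicate 1 or spleen replicate 2). On the TPM scale Iars2 was slightly lower in TIL (10.9 TPM in TIL, 11.0 TPM in Sp). It shares 22.9% of its exonic bases with Rab3gap2 on the opposite strand.

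Hars2 and Mars2 fell. Hars2, for histidine, had 26.7, 29.4 and 27.2 CPM in TIL libraries, against 36.3, 37.8 and 33.9 CPM in Sp libraries (log2 fold change -0.35, SE 0.07, adjusted p = 0.0011). Its cytosolic counterpart Hars, which rose, lies beside it on chromosome 18 on the other strand, and 195 exonic bases are shared by the pair. Mars2, for methionine, had 9.71, 10.6 and 8.92 CPM in TIL libraries, against 12.7, 11.9 and 13.0 CPM in Sp libraries (-0.33, adjusted p = 0.0086). The groups did not overlap in either gene. The Mars2 call was lost with the Sp libraries summed (adjusted p = 0.11). The summed B cell, macrophage and dendritic cell markers given above also fell in TIL, and their part in these values was not tested.

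The genes that did not pass were Cars2 (-0.13, adjusted p = 0.12), Wars2 (-0.12), Pars2, for proline (-0.06), Ears2, for glutamate (-0.05), and Vars2 (0.01, adjusted p = 0.89). Cars2 averaged 19.9 ± 0.0926 CPM in TIL and 22.2 ± 0.362 CPM in Sp (SD, n = 3 each), without overlap, and was called lower with upper-quartile scaling (adjusted p = 0.035). The other 4 overlapped between tissues. Wars2, Pars2 and Ears2 lay between 6.33 and 11.1 CPM over the 6 libraries, with SEs of their log2 fold changes of 0.13, 0.10 and 0.09.

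Lars2, annotated as the leucine enzyme of mitochondria, was unlike all other members in level. It had 5392, 5281 and 7277 CPM in TIL libraries, against 5047, 5215 and 5088 CPM in Sp libraries, or 763 TPM in TIL and 726 TPM in Sp. The next mitochondrial gene in TIL, Tars2, was at 16.5 TPM. Lars2 transcripts share a stretch of 72 bases, at 98.6% identity, with Gm15564, a gene model annotated as antisense on chromosome 16 (mm10, 35966752 to 35983230). Of the 11217 sequence words of read length in Lars2, 3 (0.0267%) are shared exactly with Gm15564. Gm15564 had 1838, 1713 and 2445 CPM in TIL libraries, against 1740, 1783 and 1747 CPM in Sp libraries. Tumor replicate 3 was the highest library for both genes. How many of the Lars2 counts come from the shared stretch was not tested, so its level and its fold change (0.25, adjusted p = 0.037, and 0.11 without tumor replicate 3) are uncertain as values of the enzyme's transcript. This search was made for Lars2 after its level was seen.

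**Figure D3:**
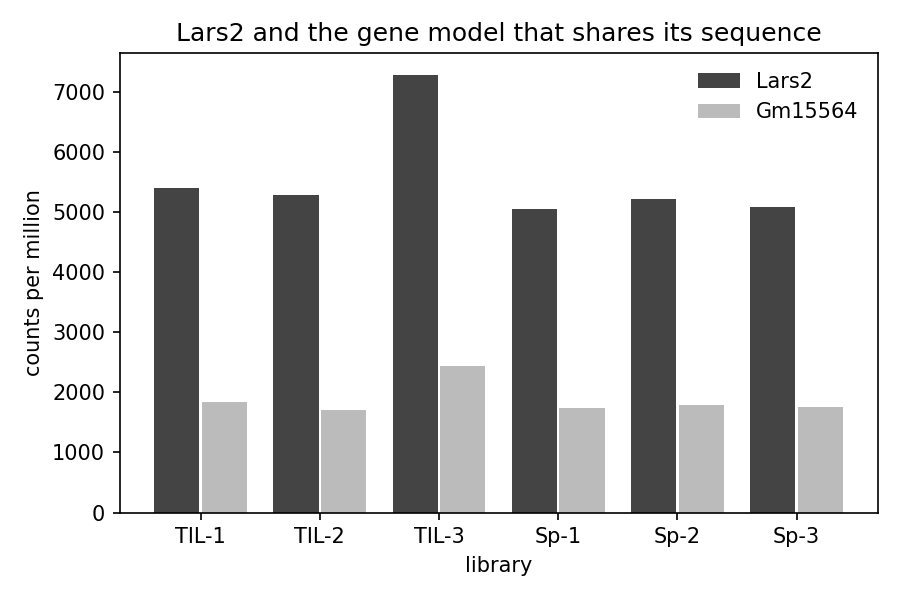
Lars2 and Gm15564 in CPM in each library, TIL libraries on the left and Sp libraries on the right. Both genes are highest in TIL-3, at 7277 and 2445 CPM.

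The balance between the compartments was then followed amino acid by amino acid, as the ratio of the cytosolic to the mitochondrial transcript per exon length in each library, over 17 pairs. The ratio was above 1 in both tissues for 16 pairs, the exception being Lars over Lars2. It was higher in TIL without overlap for 14 pairs, and each of these had a two-sided exact permutation p of 0.1 (n = 3 each), the smallest that 3 against 3 allows, or 0.12 after Benjamini-Hochberg adjustment over the 17 pairs. Pairs with Eprs or Fars2 share a gene and are not independent of each other. No such share was computed for ratios of other genes, and among all single genes tested 35.1% were higher and 39.4% lower without overlap. The ratios use the same counts as the fold changes above, so they are not separate evidence.

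Methionine and cysteine showed the largest shifts. Mars1 over Mars2 had a mean log2 ratio of 5.99 in TIL and 4.32 in Sp. Cars over Cars2 had a mean ratio of 4.33 in TIL and 1.31 in Sp on the linear scale, which the values after it share. Eprs over Pars2 was at 4.07 in TIL and 1.74 in Sp, and Hars over Hars2 at 7.21 in TIL and 3.62 in Sp. For threonine the ratio overlapped between tissues (Tars over Tars2, 1.79 in TIL and 1.87 in Sp, exact permutation p = 0.3), and both genes rose. It also overlapped for Farsa over Fars2 (4.39 in TIL, 4.75 in Sp) and Nars over Nars2 (22.4 in TIL, 18.8 in Sp), each with an exact permutation p of 0.2. Wars over Wars2 was barely separated, as the lowest TIL library and the highest Sp library both rounded to a log2 ratio of 4.87.

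**Figure D4:**
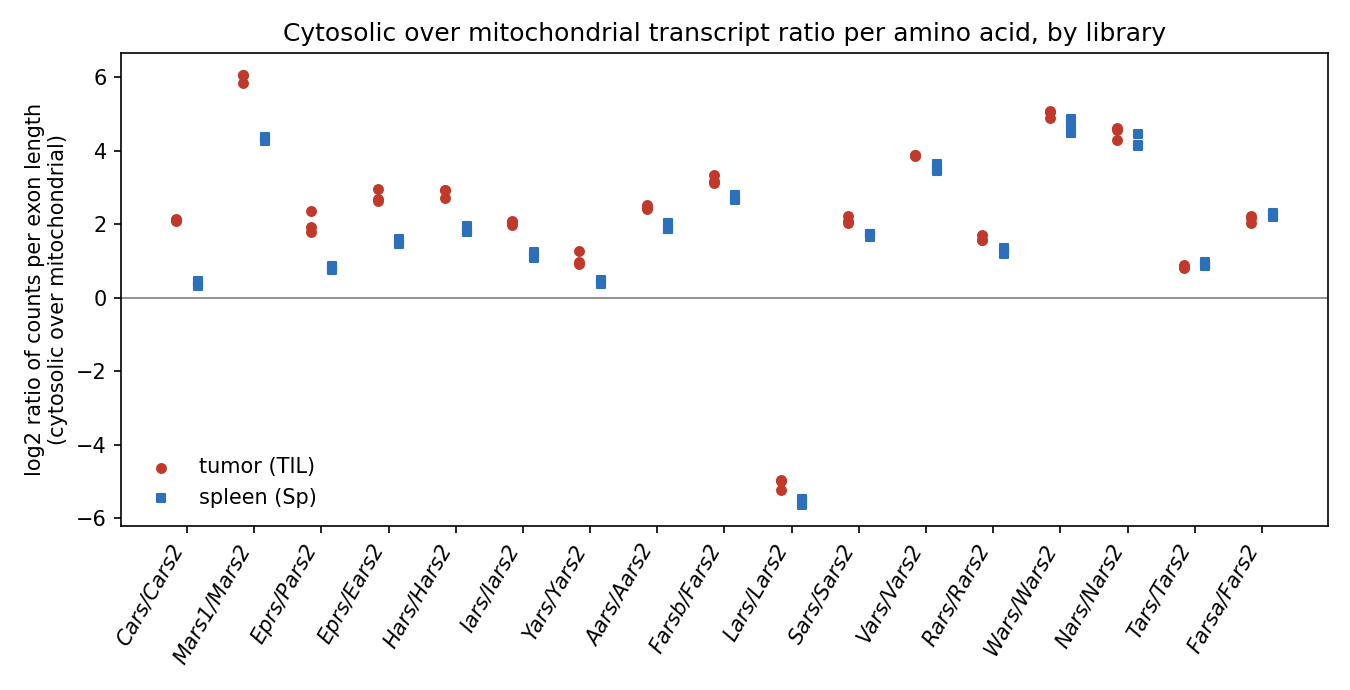
Log2 ratio of cytosolic over mitochondrial counts per exon length in each TIL and Sp library, with pairs ordered by the difference between tissues. The largest differences are in Cars over Cars2 (1.73) and Mars1 over Mars2 (1.67), and the last 3 pairs overlap.

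Members of the multisynthetase complex rose as did the other cytosolic enzymes. The 8 enzymes of the complex (Eprs, Iars, Lars, Mars1, Qars, Rars, Kars and Dars) had a median log2 fold change of 0.82, and the other 12 cytosolic genes one of 0.76. The scaffold genes Aimp1 (1.47-fold), Aimp2 (1.94-fold) and Eef1e1 (2.57-fold), which hold the complex together, were all 3 higher in TIL. Eef1e1 had 41.4, 46.9 and 57.2 CPM in TIL libraries, against 19.1, 19.3 and 19.3 CPM in Sp libraries.

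Genes that act before and after charging were also counted, against 34.8% higher and 35.9% lower among all genes tested. Of 20 tRNA processing and export genes, 16 were higher and 1 lower in TIL, with a median of 0.84. Nsun2, a tRNA methyltransferase, rose 2.53-fold and Xpot, the exportin that carries tRNA out of the nucleus, 2.11-fold, while Clp1, a kinase of tRNA splicing, was the lower one (-0.26). Of 7 genes for cytosolic elongation and its helpers, 6 were higher, among them Eef1g (1.37) and Eif5a (1.41), and Dph5, which takes part in making the diphthamide of elongation factor 2, was lower (-0.59). Of 13 genes for mitochondrial translation factors and the amidotransferase that makes mitochondrial glutaminyl-tRNA, 6 were higher and 2 lower, with a median of 0.16, a share of higher genes not far from that of all genes. Tsfm (0.87) and Gfm1 (0.74), mitochondrial elongation factors, rose, and Mtfmt, which formylates the initiator methionyl-tRNA (-0.38), and Qrsl1, a subunit of the amidotransferase (-0.22), fell. Of 4 genes that clear mischarged tRNA, Aarsd1 (0.97) and Dtd1 (0.54) were higher, and Prorsd1 (-0.28) and Dtd2 (0.10) did not pass.

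ATF4 and its known target genes other than synthetases were higher for 21 of 25 tested, against 34.8% of all genes, with 0 lower (also 0 at an unadjusted p below 0.05 and with DESeq2 or limma-voom) and a median of 1.5. Asns, asparagine synthetase, had 73.4, 79.6 and 91.6 CPM in TIL libraries, against 4.79, 5.26 and 4.99 CPM in Sp libraries (16.6-fold). Slc7a1, a cationic amino acid transporter, rose 3.98-fold. Atf4 itself, given because the list bears its name, had 124, 137 and 132 CPM in TIL libraries, against 62.8, 63.0 and 66.5 CPM in Sp libraries (2.08-fold). The 4 that did not pass were Atf5 (0.18), Cebpb (0.13), Nupr1 (0.14) and Ddit4 (-0.34, SE 0.35), and Vldlr was at 0 counts in Sp and not tested. Ddit4 had 46.3, 46.4 and 12.4 CPM in TIL libraries, against 43.8, 46.9 and 46.2 CPM in Sp libraries, so its negative value rests on tumor replicate 3. Interferon response genes, a list set beside Wars, were lower for 14 of 16, against 35.9% of all genes, and higher for 0 (also 0 at an unadjusted p below 0.05 and with DESeq2 or limma-voom), with Ifit3 at -2.53 and Irf7 at -1.80. Psmb8 (0.01) and Psmb9 (-0.09) did not pass. What the loss of B cell, macrophage and dendritic cell markers in TIL adds to this list was not tested.

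**Figure D5:**
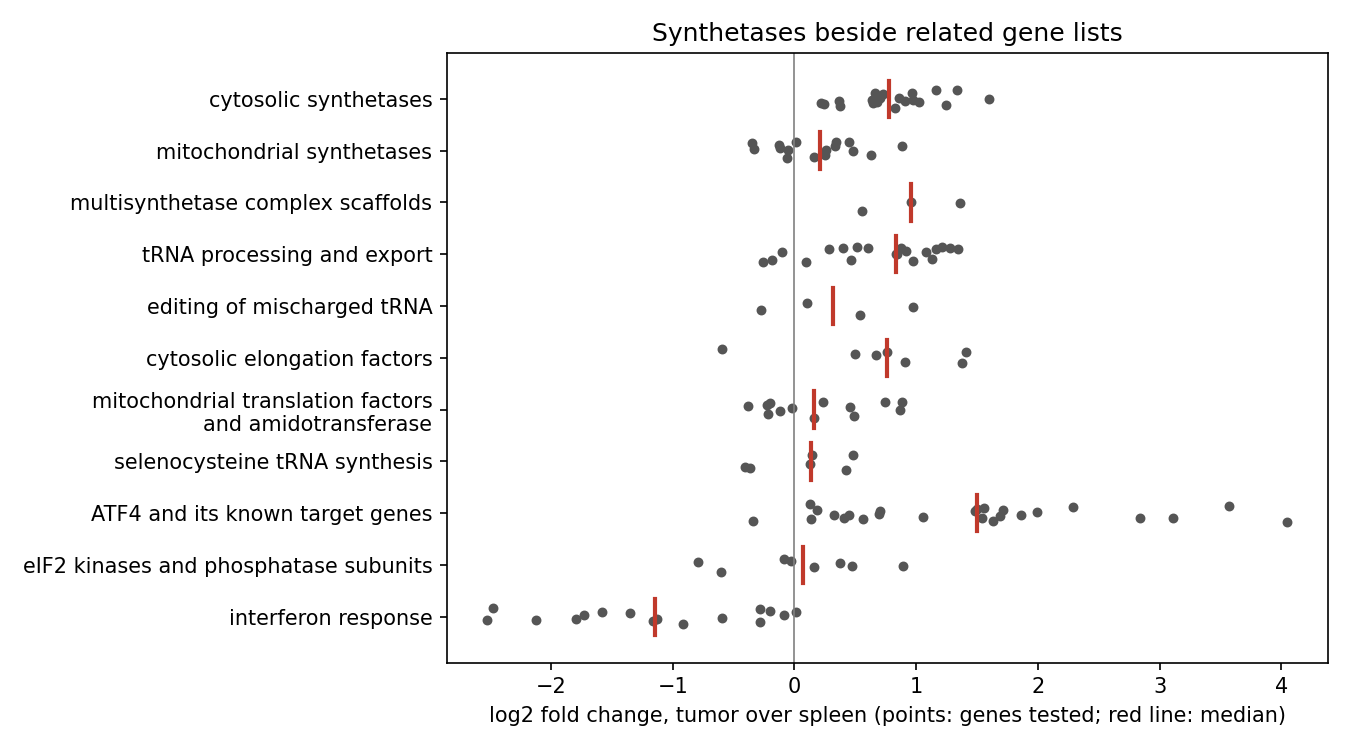
Log2 fold change, TIL over Sp, of each gene tested (points) with the list median (red line) for the synthetases and 9 related lists. Medians are 0.77 for cytosolic and 0.21 for mitochondrial synthetases, 1.5 for ATF4 and its targets and -1.15 for interferon response genes.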

How the data were processed

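Per the labels' protocols, RNA of sorted P14 cells was amplified with a kit for low input, made into stranded libraries and read as single reads of 50 bp. STAR 2.3, featureCounts, bcl2fastq 2.20.0.422 and the mm10 build are named in the submitters' processing notes. Not given in the sources used here are the featureCounts version, its strand setting, how it treated multi-mapped reads and the annotation release. The values the authors deposited are whole-number counts per gene with no normalization.

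Symbols, positions and exon lengths came from GENCODE M21 (54587 of 55335 identifiers matched with version). CPM is a count over the library total, and TPM divides by annotated exon length and rescales each library to the same total. Genes were filtered with filterByExpr (minimum count 10, minimum total 15) and compared between tissues by the quasi-likelihood test of edgeR 4.0.16 (R 4.3.3, TMM scaling), with Benjamini-Hochberg adjustment over 19783 genes and a threshold of 0.05. Each SE was derived from the log2 fold change and its F statistic. DESeq2 1.42.0, limma 3.58.1, 3 other scalings, other filters, a replicate block, summed spleen libraries and each library left out were alternatives. Ratios were compared with SciPy 1.17.1. The procedure was tested on simulated counts.

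A count of 0 allows up to 3 counts per library, for counting error only. Every pair of libraries differed by more than counting noise (chi-square per degree of freedom at least 2.19). Pairs of Sp libraries had values from 2.19 to 3.52. Tumor replicates 1 and 2 were at 9.16, and tumor replicate 3 was further off, at 33.5 from replicate 1 and 19.9 from replicate 2. The labels do not say that equal numbers mark the same mice, so the numbers were not taken to pair samples, and a replicate block was an alternative. Deviations of equal-numbered TIL and Sp libraries correlated at -0.00079, 0.016 and 0.0024. Values near 0 cannot show whether the libraries are paired, since deviations may be technical. The members and lists were chosen with earlier results of these data known. Any member could be named. Of each other list, the 2 genes with the smallest p in each direction and every gene of lists of 10 or fewer could be named, and others spell out counts of 5 or fewer.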

Additional observations from a re-analysis of the deposited data

How the results depend on the processing

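The cytosolic count of 20 higher and 0 lower genes held in 14 of 15 alternatives, and was 18 higher with the spleen libraries summed into 1 sample. That alternative left 3 mitochondrial genes higher and 1 lower. The cytosolic median moved to 0.72 with upper-quartile scaling, and the mitochondrial median to 0.15 there, 0.18 with library totals as scaling and 0.18 with a minimum count of 50. Leaving out 1 library gave cytosolic medians from 0.77 to 0.79 and mitochondrial medians from 0.15 to 0.21, with 6 to 9 mitochondrial genes higher. Vars2, which was not called, had log2 fold changes of -0.040 with upper-quartile scaling, -0.017 with library totals, -0.010 with a minimum count of 50, and from -0.029 to 0.092 with 1 library left out. Pars2, also not called, ranged from -0.14 to 0.036 with 1 library left out, the highest without tumor replicate 3. With a replicate block, 20 cytosolic genes were higher, 8 mitochondrial genes were higher and 2 lower, and the call of Iars2 was lost (adjusted p = 0.052). Of the 36 members, 24 kept direction and call in all 15 alternatives. The causes of these changes were not tested, except that summing and leaving out leave fewer samples. The direction of every called member was the same under each scaling, apart from Iars2 on the TPM scale. With 3 libraries a group, exact tests over libraries cannot go below 0.1.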

Other observations

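Synthetases fall into class I and class II by the fold of their catalytic domain. The 10 cytosolic class I genes ranged in log2 fold change from 0.22 (Wars) to 1.60 (Cars), with a median of 0.87, and the 10 cytosolic class II genes from 0.37 (Farsa) to 0.98 (Farsb), with a median of 0.76. Among mitochondrial genes, 4 of 9 class I genes were higher and 1 lower, with a median of 0.01. Of 7 class II genes, 5 were higher and 1 lower, with a median of 0.34. Among all genes tested, 34.8% were higher and 35.9% lower. Iars2 and Lars2, of class I, each lost their call in 7 of 15 alternatives, and Sars2, of class II, in 4. This grouping was added after the values were seen, and the difference between classes was not tested.

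Tarsl2, a relative of Tars outside the member list and chosen after values were seen, had 7.92 ± 0.895 CPM in TIL and 6.36 ± 0.809 CPM in Sp (SD, n = 3 each, log2 fold change 0.34), and was called by edgeR (adjusted p = 0.026). Of 6 genes for selenocysteine, whose tRNA is first charged with serine, Sephs2, which makes selenophosphate (0.48), and its relative Sephs1 (0.43) were higher. Pstk, the kinase of seryl-tRNA (-0.41), and Secisbp2 (-0.36) were lower. These shares are close to those of all genes tested, 34.8% higher and 35.9% lower, and so are those of the next list. Of 8 tested genes for eIF2 kinases and their partners, Eif2ak4, which encodes the uncharged-tRNA sensor GCN2 (0.48), Eif2s1 (0.89) and Ppp1r15a (0.38) were higher, and Impact, an inhibitor of GCN2 (-0.79), and the interferon-induced kinase gene Eif2ak2 (-0.61) were lower.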
